A study of Mus musculus with 6 samples.

Results

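Glypicans and syndecans are the cell-surface proteoglycans of the embryonic kidney that carry heparan sulfate chains, and all 10 genes of the mouse families (Gpc1 to Gpc6 and Sdc1 to Sdc4) were taken by name from the 27179 entries of the deposited expression table. Genes were chosen by name and no measured value decided among them, but the families were selected on earlier results of the mutant against control contrast in these data, so the p-values below are the output of a fit across the whole table and not independent evidence. RNA was measured in Six2+ nephron progenitors, sorted by GFP from kidneys at E16.5, in 3 Mutant libraries (Six2TGC;miR-17~92fl/fl) and 3 Control libraries (Six2TGC), each from the progenitors of 4 pooled embryos. Both genotypes carried Six2TGC, a transgene with Six2 regulatory sequences that drives a GFP and Cre recombinase fusion in nephron progenitors. The mutants had in addition floxed copies of miR-17~92, a cluster of 6 microRNA genes on chromosome 14, so the cluster was removed in cells with Cre activity. The labels name no floxed copies in the controls and give no strain background. Loss of the cluster and any sequence inherited with the floxed allele, which could include the neighbouring Gpc5 and Gpc6, therefore cannot be told apart.

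Heparan sulfate is a chain of sulfated sugars that binds FGF, Wnt, BMP, hedgehog and GDNF ligands and sets how far they spread and how well they reach their receptors. Glypicans hold these chains at the cell surface through a lipid (GPI) anchor, while syndecans span the membrane with a short cytoplasmic tail that binds PDZ proteins and the cytoskeleton. In the kidney, heparan sulfate is needed for growth of the ureteric bud into the mesenchyme, and mice without Gpc3 or without the 2-O-sulfotransferase Hs2st1 have abnormal kidneys.

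The microRNAs that the mutation removes are shown first, because their seeds define the sites searched for in the glypican and syndecan transcripts. The mature strands are from RefSeq (GRCm38.p6, the mm10 build) and lie on the plus strand of chromosome 14, in the order below. Capitals mark the seed, bases 2 to 8 from the 5′ end.
miR-17-5p: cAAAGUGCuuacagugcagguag
miR-18a-5p: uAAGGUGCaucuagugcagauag
miR-19a-3p: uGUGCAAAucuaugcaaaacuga
miR-20a-5p: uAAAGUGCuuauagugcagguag
miR-19b-3p: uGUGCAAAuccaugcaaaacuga
miR-92a-3p: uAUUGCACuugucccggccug
miR-17 and miR-20a share 1 seed and miR-19a and miR-19b share another, so the 6 microRNAs hold 4 seeds.

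At the targeted locus the libraries went with their labels. The Mir17 precursor had 0.787, 0 and 0 RPKM (reads normalized for transcript length and library depth) in mutants, against 12.5, 8.57 and 6.77 RPKM in controls (adjusted p = 8.54e-05, limma on log2(RPKM + 0.5)). Mir17hg, the host gene entry annotated at chr14:115044390-115046728 (mm10, plus strand), had 259, 183 and 194 RPKM in mutants, against 45.4, 33.6 and 52.9 RPKM in controls, a log2 fold change of 2.26 (SE 0.18, adjusted p = 4.93e-05). This entry starts after miR-17-5p to miR-19b-3p (chr14:115043684-115044380), so its level does not measure RNA across them. It does span miR-92a-3p (chr14:115044476-115044496), which belongs to the same cluster. The level is a single value for the whole entry, so it cannot show whether RNA over miR-92a-3p was lost. Loss of miR-92a-3p was not tested. The Mir18 and Mir20a precursors had log2 fold changes of -2.07 and -1.57 (limma adjusted p = 0.00347 and 0.00727). Depth was 27602030 to 30264072 reads in mutants and 28117795 to 36134387 reads in controls. Mitochondrial ribosomal RNA took 32.23 to 38.24% of reads in mutants, against 26.96 to 30.35% in controls, and the depth by which RPKM divides includes these reads. The median log2 fold change over all 13463 tested genes was -0.12, and -0.01 when depth was counted without that RNA. The sort was led by nephron progenitor genes, whose 12 markers summed to 692 to 810 RPKM in mutants, against 887 to 955 RPKM in controls. By the test 2 of 12 were lower, where 1.81% of all tested genes were called lower. Six2 itself was at 57 to 77 RPKM in mutants, against 69.9 to 104 RPKM in controls (limma adjusted p = 0.249).

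Gpc3 and Gpc6 made up most of the glypican RNA in progenitors of both genotypes. On the RPKM scale, which is per transcript length, Gpc3 averaged 98.7 ± 14.6 RPKM in mutants and 101 ± 9.52 RPKM in controls (SD, n = 3 each), and its mean over the 6 libraries was above that of 97.8% of tested genes. Gpc6 averaged 82 ± 3.04 RPKM in mutants and 80.4 ± 9.13 RPKM in controls. Together they gave 87.8 to 90% of the summed glypican RPKM in mutants, against 90.5 to 90.7% in controls. Among the syndecans, Sdc4 led with 59 to 65.4% of the summed RPKM in mutants, against 57.4 to 65.9% in controls, and Sdc2 came second.

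The order of the mean levels in mutants was Gpc3, Gpc6, Sdc4, Sdc2, Gpc5, Gpc4, Gpc1, Gpc2, Sdc3 and Sdc1, and in controls it was Gpc3, Gpc6, Sdc4, Sdc2, Gpc1, Gpc4, Sdc3, Gpc2, Gpc5 and Sdc1. The top 4 places and the last went to the same genes by mean level. Gpc5 stood at rank 5 in mutants, against rank 9 in controls. In mutants Gpc6 and Sdc4, Sdc4 and Sdc2, Sdc2 and Gpc5, and Sdc3 and Sdc1 were neighbours whose ranges over 3 libraries did not overlap. In controls this held for Gpc3 and Gpc6, Gpc6 and Sdc4, Sdc4 and Sdc2, Sdc2 and Gpc1, and Gpc5 and Sdc1. The remaining neighbours did not differ beyond their spread, so the places of Gpc3 and Gpc6 and those from Gpc5 to Sdc3 in mutants, and those from Gpc1 to Gpc5 in controls, are not resolved one by one.

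**Figure D1:**
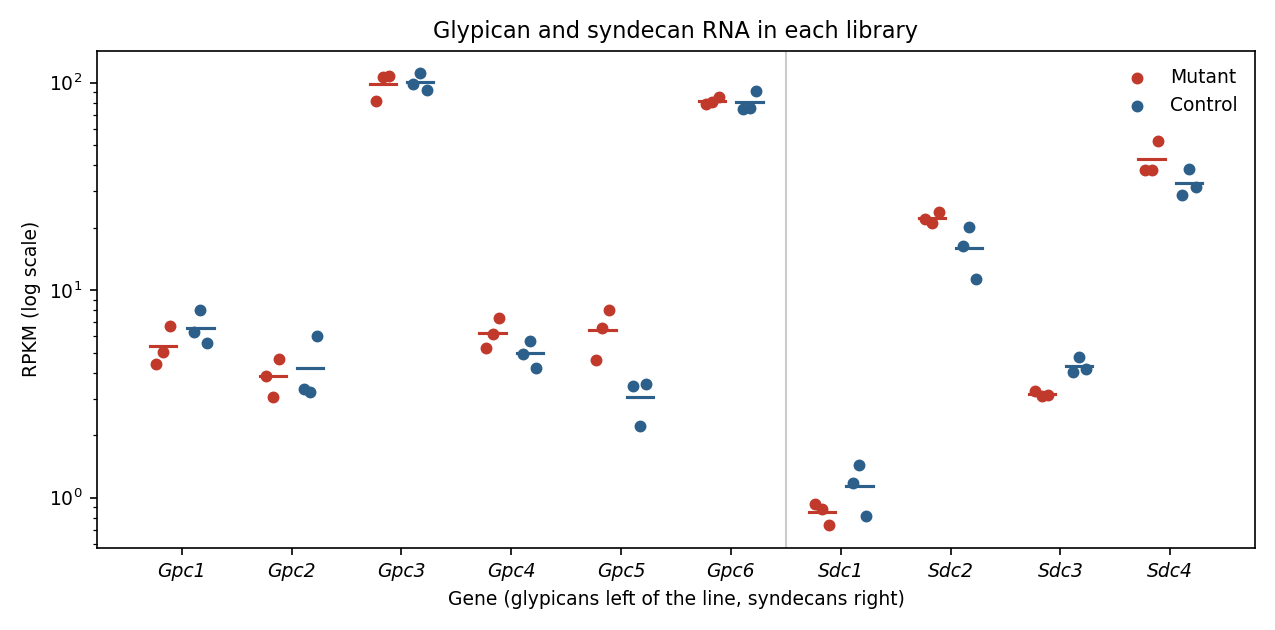
Level of each gene in each library, in RPKM on a log scale; each point is 1 library, the short bars are group means, and mutants stand left of controls. Gpc3 and Gpc6 lie near 100 RPKM in both genotypes, Sdc1 near 1, and the mutant and control points of Gpc5, Sdc2 and Sdc3 do not overlap.

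Of the 10 genes, 1 passed the test for a genotype difference: Gpc5, which rose in mutants. In bulk RNA of sorted cells, fewer cells of a type and less RNA per cell cannot be told apart. Across the whole table, 3.13% of tested genes were called (422 of 13463), 178 or 1.32% higher and 244 or 1.81% lower, and nothing is read from the 1 of 10 against that share. All 10 genes passed the filter on low values, which asked for 0.5 RPKM or more on average across libraries. The groups did not overlap for 3 of the 10 (Gpc5, Sdc2 and Sdc3), where 25.1% of all tested genes had groups that did not overlap, and 4 of the 10 had an unadjusted p under 0.05, as did 19.6% of all tested genes (2641 of 13463). The median log2 fold change was -0.00 over the 6 glypicans and 0.05 over the 4 syndecans, and for 7 of the 10 genes it exceeded the median of all genes.

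Gpc5, the closest relative of Gpc3 and a glypican that raises hedgehog signalling in human tumour cells, had 4.59, 6.59 and 8.02 RPKM in mutants, against 3.45, 2.2 and 3.53 RPKM in controls. Every mutant library was above every control library, with mutant 1 nearest to the controls and control 2 lowest. The means were 6.4 ± 1.72 RPKM in mutants and 3.06 ± 0.745 RPKM in controls (SD, n = 3 each), a ratio of 2.09. In whole reads worked out from the RPKM steps, these levels rest on 401, 528 and 639 reads in mutants, against 293, 229 and 286 reads in controls. The log2 fold change on the log2(RPKM + 0.5) scale was 0.95 (SE 0.22, 95% interval 0.47 to 1.43, limma adjusted p = 0.0401). As a share of the summed glypican RPKM, Gpc5 was 2.56, 3.17 and 3.64% in mutants, against 1.81, 1.07 and 1.74% in controls, so it stayed a minor glypican in both. The call lies near the threshold: the adjusted p ran from 0.00836 to 0.21 over 18 other settings, with the fold change above 0 in all 18. It was lost without control 1 (0.0599), control 2 (0.0544), mutant 2 (0.21) or mutant 3 (0.128), without the filter on low values (0.163), without the variance trend (0.0608) and with array weights (0.0602).

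**Figure D2:**
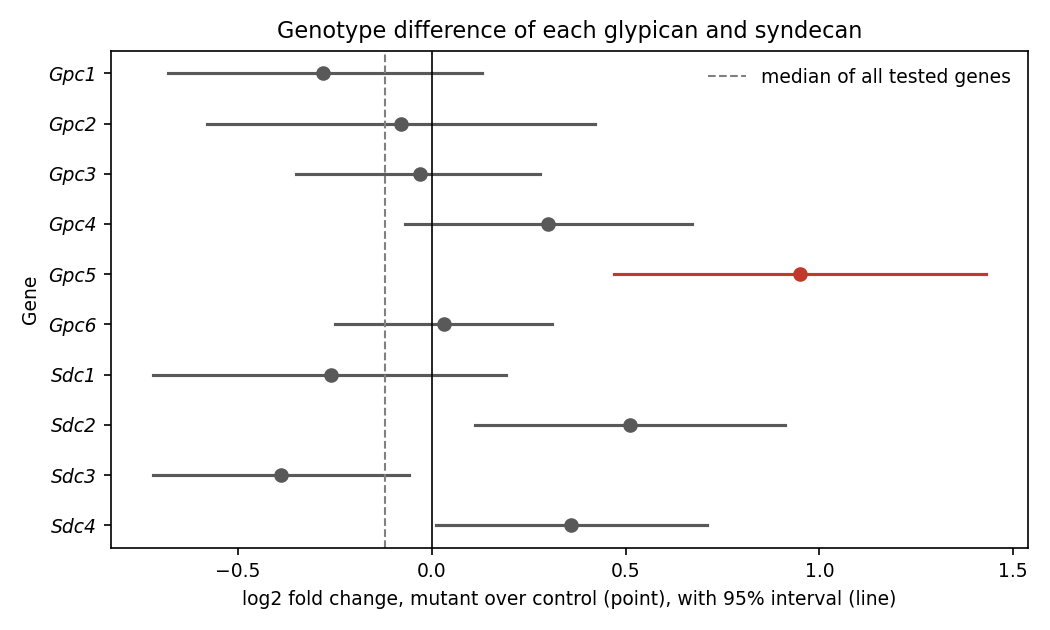
Log2 fold change of mutants over controls for each gene (points) with its 95% interval (lines); the dashed line is the median of all tested genes, and Gpc5, in red, is the gene past an adjusted p of 0.05. The interval of Gpc5 runs from 0.47 to 1.43, those of Sdc2, Sdc3 and Sdc4 leave out 0 before adjustment, and the points of Gpc2 and Gpc3 lie below 0 but above 0 under 3 other scalings.

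Gpc5 is also the next annotated gene beyond the deleted cluster. Gpc5 (chr14:115092201-116525192, plus strand) starts 45.5 kb beyond the end of Mir17hg, with no other annotated gene between them. Gpc6, a glypican that mice and humans need for bone growth, lies on the same strand after a gap of 399.7 kb (chr14:116924920-117979529). Its level was 79.4, 81.2 and 85.4 RPKM in mutants, against 74.7, 75.6 and 91 RPKM in controls. The groups overlapped, and the log2 fold change was 0.03 (95% interval -0.25 to 0.31, adjusted p = 0.902). Gpc5 as a percentage of Gpc6 in the same library was 5.78, 8.11 and 9.4 in mutants, against 4.61, 2.9 and 3.88 in controls. With Gpc6 at about the same level in both genotypes, this percentage restates the Gpc5 values and is not a second result. Of the tested genes that start within 4 Mb beyond Mir17hg, Gpc5 alone was called, and no gene in the 2 Mb before the cluster was expressed enough to be tested. Gpc6, Tgds, Gpr180, Abcc4, Cldn10, Dzip1, Dnajc3, Uggt2 and 4930505G20Rik were not, with log2 fold changes from -0.21 to 0.50. 4930505G20Rik, picked out because it lies inside the span of Gpc5, had 1.47, 1.6 and 3.16 RPKM in mutants, against 1.69, 0.444 and 2.09 RPKM in controls (log2 fold change 0.50, adjusted p = 0.436).

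**Figure D3:**
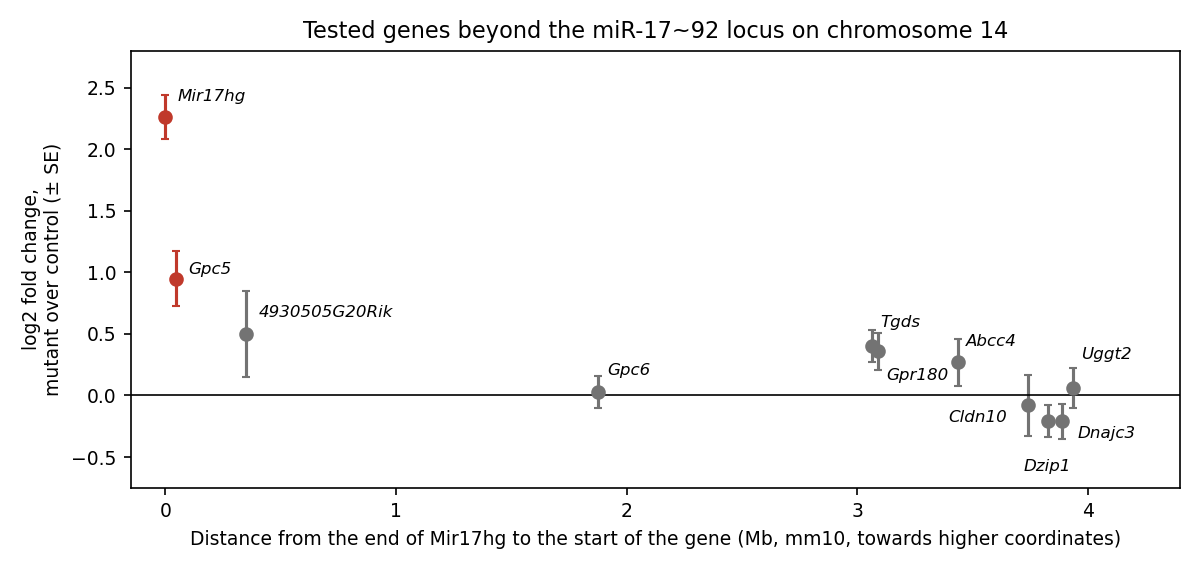
Log2 fold change of mutants over controls (± SE) for tested genes by the distance of their start from the end of Mir17hg, which is drawn at 0; red points passed an adjusted p of 0.05. Mir17hg (2.26) and Gpc5 (0.95) stand above the other genes, and Gpc6, at 1.88 Mb, lies at 0.03.

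Gpc5 was compared over the 6 libraries with 10978 tested genes averaging 1 RPKM or more, leaving out unnamed entries and Gm, Rik and LOC names. Among these, the levels that followed Gpc5 most closely were those of Frrs1 (Pearson r = 0.994), Meg3 (0.992) and Ppargc1a (0.984). The scale was log2(RPKM + 0.5), and 22 of the genes compared had r above 0.95. The 6 libraries include the genotype difference itself, so these values are a description of the libraries. Frrs1 had 3.16, 3.93 and 4.42 RPKM in mutants, against 2.92, 2.15 and 2.79 RPKM in controls, and was not called (adjusted p = 0.188). Meg3, an imprinted noncoding RNA, and Ppargc1a, a coactivator of mitochondrial genes, were likewise not called (adjusted p = 0.178 and 0.3).

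The X-linked glypicans are neighbours too. Gpc4 (chrX:52051007-52164923, minus strand), which acts in Wnt planar polarity in zebrafish, and Gpc3 (chrX:52272426-52613974, minus strand), an inhibitor of hedgehog signalling and growth, are 107.5 kb apart, and Gpc3 lies 127.7 kb from Mir363, a gene of the X-linked cluster related to miR-17~92. Gpc3 had 81.9, 106 and 108 RPKM in mutants, against 98.1, 111 and 92.6 RPKM in controls. The groups overlapped (log2 fold change -0.03, 95% interval -0.35 to 0.28, adjusted p = 0.912), and the sign turned under 3 other scalings, to between 0.07 and 0.18. Gpc4 had 5.26, 6.11 and 7.37 RPKM in mutants, against 4.93, 5.71 and 4.22 RPKM in controls (log2 fold change 0.30, 95% interval -0.07 to 0.67, adjusted p = 0.339). The RNA of Xist, made from the inactive X of females, was 60.1, 180 and 122 RPKM in mutants, against 154, 0.034 and 0.0278 RPKM in controls. Xist was thus high in every mutant library and in control 1, and near 0 in controls 2 and 3. The sexes of the pooled embryos therefore differed between libraries and partly along with genotype. The part of this in the levels of Gpc3, Gpc4 and all other genes reported here was not tested. The precursors of that X-linked cluster were listed at 0, apart from Mir106a (0.554 RPKM) and Mir20b (0.45 RPKM) in mutant 2. These entries are short (65 bases for Mir106a), and 1 read on 1 kb was 0.036 RPKM in mutant 2. Such values therefore rest on very few reads, and a value of 0 does not show absence.

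Gpc1 and Gpc2 were not called. Gpc1, an FGF co-receptor on chromosome 1, had 4.39, 5.02 and 6.75 RPKM in mutants, against 6.26, 7.98 and 5.56 RPKM in controls (log2 fold change -0.28, 95% interval -0.68 to 0.13, adjusted p = 0.42). Gpc2, best known from growing axons, had 3.84, 3.04 and 4.66 RPKM in mutants, against 3.32, 3.24 and 6.04 RPKM in controls (log2 fold change -0.08, adjusted p = 0.863, and 0.01 to 0.03 under 3 other scalings). Each of these pairs of groups overlapped. The level of Gpc2 is uncertain, because 55.6% of its exon bases are shared with Gm43720, a predicted gene on the same strand. No entry among the deposited values was matched to Gm43720. For Gpc1, 18.9% of the exon bases overlap Ankmy1, which has an entry, on the opposite strand. The strand setting of the libraries is not given in the sources used here.

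No syndecan passed the test, and the estimates of the 4 genes were of both signs. Sdc2, a syndecan linked to filopodia and vessel growth, had 22, 21.1 and 23.8 RPKM in mutants, against 16.3, 20.1 and 11.3 RPKM in controls. The mutant libraries were all above the controls, of which control 2 came close. The log2 fold change was 0.51 (SE 0.18, 95% interval 0.11 to 0.91, adjusted p = 0.164), and without control 2 it was 0.70 with an adjusted p of 0.0253. Sdc3, the main syndecan of neurons, had 3.28, 3.08 and 3.12 RPKM in mutants, against 4.05, 4.74 and 4.15 RPKM in controls, with every mutant library below every control (log2 fold change -0.39, SE 0.15, 95% interval -0.72 to -0.06, adjusted p = 0.191). As a share of the summed syndecan RPKM, Sdc3 was 5.11, 4.89 and 3.9% in mutants, against 8.04, 7.34 and 8.69% in controls. That sum was 63.1 to 79.9 RPKM in mutants, against 47.8 to 64.6 RPKM in controls. The share therefore also moves with the other syndecans and is not a second result on Sdc3. Sdc4, which works with integrins at focal adhesions, had 37.8, 38.1 and 52.2 RPKM in mutants, against 28.9, 38.3 and 31.5 RPKM in controls, where control 2 overlapped the mutants (log2 fold change 0.36, 95% interval 0.01 to 0.71, adjusted p = 0.243). Sdc1, the syndecan of epithelia that kidney mesenchyme starts to make when induced, was the lowest of the 10, with 0.93, 0.883 and 0.735 RPKM in mutants, against 1.17, 1.43 and 0.814 RPKM in controls (62 to 86 reads in mutants and 70 to 158 reads in controls; log2 fold change -0.26, 95% interval -0.72 to 0.19, adjusted p = 0.485).

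**Figure D4:**
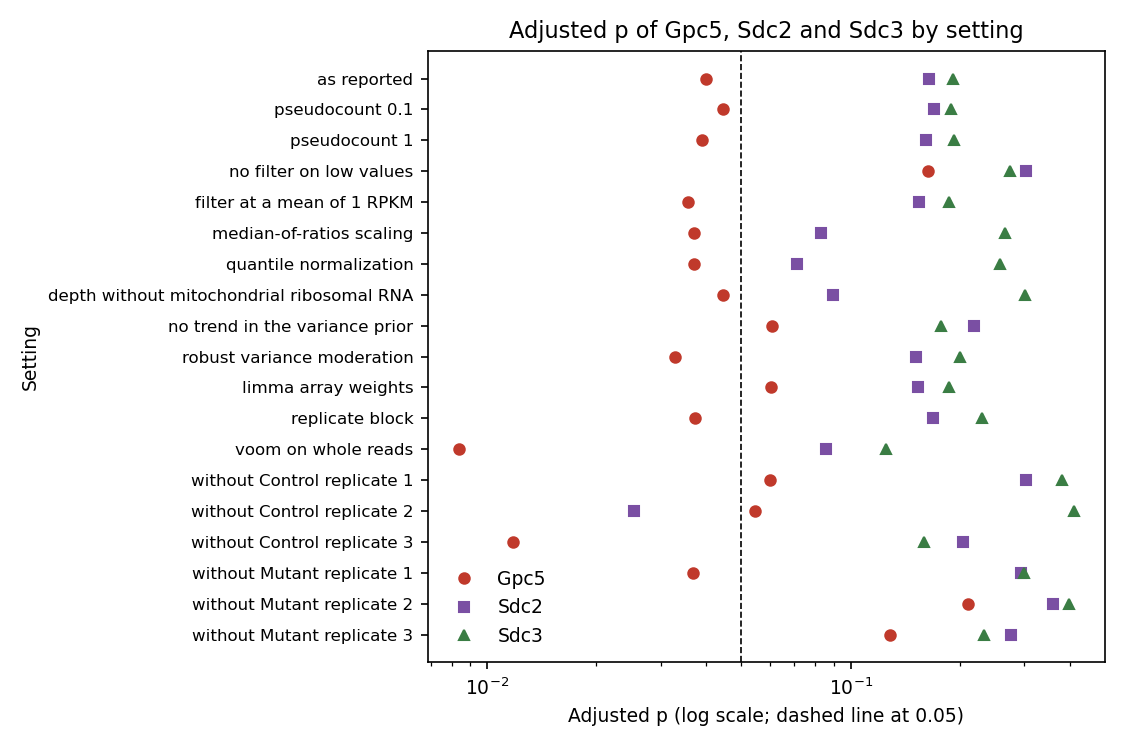
Adjusted p of Gpc5 (circles), Sdc2 (squares) and Sdc3 (triangles) under each setting, on a log scale with a dashed line at 0.05. Gpc5 lies left of the line as reported and under 11 of the 18 other settings, Sdc2 only without control 2, and Sdc3 under none.

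Matches to the whole seed (bases 2 to 8) of a removed microRNA were found in the 4 syndecans and in none of the 6 glypicans, while shorter 6mer matches (bases 2 to 7) were also in Gpc4 and Gpc6. In each gene's longest 3′ UTR in the annotation, a 7mer-m8 match (the complement of seed bases 2 to 8) or an 8mer (the same followed by A) was searched for on the transcript strand: GCACTTTA for miR-17 and miR-20a, GCACCTTA for miR-18a, TTTGCACA for miR-19a and miR-19b and GTGCAATA for miR-92a as 8mers. Of the 10 genes, 4 held at least 1 match, against 34.6% of the 11568 tested genes with a 3′ UTR, and the median UTR was 1648.5 bases long in the 10 genes, against 1230 in the tested genes. The UTRs of the syndecans were 1839 to 3510 bases long, and those of the glypicans 441 to 2215 bases. The part of UTR length in the split between the families was not tested. The 742 bases of the Gpc5 UTR held no match, nor a 6mer to any of the seeds. The UTR of Gpc4 held 2 6mers and that of Gpc6 held 1, so that 6 of the 10 genes had at least 1 6mer, against 68.4% of the tested genes. The sites are printed 5′ to 3′ on the transcript strand with the match in capitals, since they are all the whole-seed matches found in the 10 genes.
Sdc1, miR-19 8mer, chr12:8792305-8792334 (+): agacaacttggtTTTGCACAtattttctct
Sdc2, miR-92a 7mer-m8, chr15:33032993-33033021 (+): gtagctgtcatgGTGCAATttgtctttga
Sdc2, miR-18a 7mer-m8, chr15:33034358-33034386 (+): tacttcgtttgaGCACCTTccctgagctt
Sdc3, miR-92a 7mer-m8, chr4:130825237-130825265 (+): gaattcttcctaGTGCAATgtgggtgcgg
Sdc4, miR-18a 8mer, chr2:164425984-164426013 (-): agagagcagcagGCACCTTAatgctgactt
The seed of miR-17 and miR-20a had no match in any of the 10 genes. The syndecans with these matches had log2 fold changes of -0.26 (Sdc1), 0.51 (Sdc2), -0.39 (Sdc3) and 0.36 (Sdc4), of both signs and none called. A match is a run of letters, not a shown site of repression.

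Genes that build, edit, anchor or carry heparan sulfate were described from 7 lists of 64 genes, beside 1 list of 15 genes for chondroitin and dermatan sulfate, the sister chains on the same linker. Of the 50 tested genes of the 7 lists, 2 rose and 2 fell in mutants (8% called), and with the 12 tested chondroitin and dermatan sulfate genes, none of them called, the share was 6.45% of 62, where 3.13% of all tested genes were called. The median log2 fold change was -0.02 with or without that list, against -0.12 over all tested genes. Sulf1, Hpse and Hs3st6 modify or cut the chains, and Cd44 carries them. With depth counted without mitochondrial ribosomal RNA the split in the 8 lists was 3 higher and 1 lower, and among all tested genes 268 higher and 149 lower, with 262 and 171 under median-of-ratios scaling and 264 and 163 under quantile normalization.

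Sulf1, an endosulfatase at the cell surface that removes 6-O-sulfates from finished chains, had 11.4, 9.68 and 10.8 RPKM in mutants, against 5.5, 5.6 and 5.89 RPKM in controls. The groups were far apart for their spread (log2 fold change 0.85, SE 0.14, adjusted p = 0.00565), and the call held in all 18 other settings. Its paralog Sulf2, named after its values were seen, was at a higher level, with 42.3, 43.4 and 54.7 RPKM in mutants, against 61.6, 63.7 and 69.8 RPKM in controls. Its groups did not overlap, with mutants below controls, but it was not called (log2 fold change -0.48, SE 0.14, adjusted p = 0.0945). Hpse, heparanase, which cuts the chains, had 1.75, 1.39 and 1.19 RPKM in mutants, against 0.506, 0.611 and 0.6 RPKM in controls (log2 fold change 0.85, SE 0.20, adjusted p = 0.0427), and this call was lost in 9 of 18 settings, among them without any of control 1, control 2 and the 3 mutants in turn. The other 7 tested genes that edit chains or release core proteins were not called.

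Hs3st6, a 3-O-sulfotransferase that adds a late sulfate, had 3.58, 2.8 and 5.14 RPKM in mutants, against 6.59, 9.57 and 7.11 RPKM in controls, with no overlap (log2 fold change -0.95, SE 0.21, adjusted p = 0.0338). The call was lost in 5 of 18 settings: without mutant 1 (0.125), mutant 2 (0.181), the filter on low values (0.144) or the variance trend (0.0537). The last of these was depth counted without mitochondrial ribosomal RNA (0.0534). The other 8 tested sulfation genes were not called, and the next by p, Ndst1, which starts sulfation, had 6.51, 6.03 and 7.75 RPKM in mutants, against 8.49, 8.98 and 9.52 RPKM in controls (adjusted p = 0.178). Cd44, a hyaluronan receptor that carries heparan sulfate in some splice forms, had 3.35, 3.81 and 3.63 RPKM in mutants, against 6.73, 8.27 and 9.11 RPKM in controls. It fell by 1.05 on the log2 scale (SE 0.16, adjusted p = 0.00356) and was called in all 18 other settings. Col18a1, a basement membrane proteoglycan in the same list, had 5.53, 5.18 and 6.91 RPKM in mutants, against 3.65, 3.85 and 2.96 RPKM in controls, just short of the threshold (log2 fold change 0.67, adjusted p = 0.0524) and past it in 7 of 18 settings. Nrp1, a co-receptor for VEGF and semaphorins in the same list, named after its values were seen, was also just short of it with mutants below controls, at 36.7, 32.5 and 35.5 RPKM in mutants, against 53.1, 45.3 and 49.6 RPKM in controls (log2 fold change -0.49, adjusted p = 0.0575).

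In the other 5 lists no gene passed the test. The 7 genes that make the sugar linker on the core protein had a median log2 fold change of -0.18, and the 2 of lowest p were Pxylp1 (0.61, adjusted p = 0.178) and Xylt1 (-0.51, adjusted p = 0.251), the enzyme that adds the first xylose. Among the 4 tested chain polymerases these were Extl2 (0.30, adjusted p = 0.349) and Extl3 (-0.21, adjusted p = 0.429). Among the 7 genes for sulfate donors and sugar nucleotides they were Slc35b3 (0.50, adjusted p = 0.148) and Papss2 (0.40, adjusted p = 0.29). The 6 tested partners of syndecan tails had a median of -0.25, led by Cask (-0.46, adjusted p = 0.0898) and syntenin, Sdcbp (-0.30, adjusted p = 0.249). The 12 tested chondroitin and dermatan sulfate genes had a median of -0.02, with Dse at 0.22 (adjusted p = 0.411) and Chpf2 at -0.29 (adjusted p = 0.464).

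**Figure D5:**
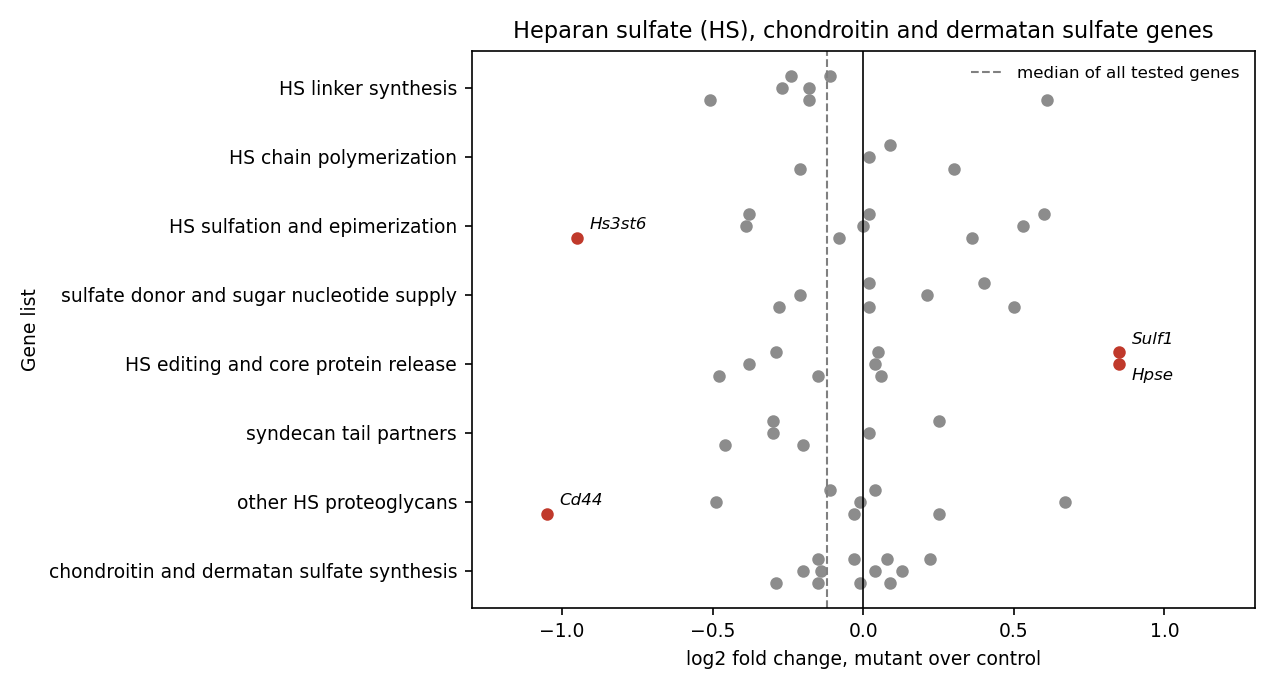
Log2 fold change of mutants over controls for each of the 62 tested genes of the 8 lists, chondroitin and dermatan sulfate genes included; each point is 1 gene, red points passed an adjusted p of 0.05, and the dashed line is the median of all tested genes. Sulf1 and Hpse stand at 0.85, Hs3st6 at -0.95 and Cd44 at -1.05.

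By the test, 3 markers of macrophages, 1 of tubules and 1 of committed cells were higher in mutants. Of the nephron progenitor markers, 2 of 12 were lower. Of all tested genes, 1.32% were called higher and 1.81% lower. The median log2 fold change was 0.63 over interstitial, 0.64 over ureteric bud and 0.28 over committed-cell markers. It was -0.31 over nephron progenitor markers and -0.12 over all tested genes. The part of these cell types in the levels above was not tested. Of 10 macrophage and leukocyte markers, 6 were tested and 3 were higher, with sums of 15.9 to 16.9 RPKM in mutants, against 5.69 to 9.62 RPKM in controls. Of 10 interstitial markers 10 were tested, 10 had fold changes over the median of all genes and 0 were called, with sums of 128 to 214 RPKM in mutants, against 66.5 to 172 RPKM in controls. Nephron tubule markers summed to 6.61 to 19.5 RPKM in mutants, against 3.79 to 4.7 RPKM in controls, with 1 of 4 tested higher, and markers of committed progenitors and renal vesicles to 107 to 139 RPKM in mutants, against 101 to 121 RPKM in controls, with 1 of 8 higher. Ureteric bud markers (5 of 12 tested) summed to 3.94 to 10.7 RPKM in mutants, against 2.53 to 6.66 RPKM in controls, podocyte markers (2 of 5 tested) to 3.64 to 10.3 RPKM in mutants, against 6.15 to 6.7 RPKM in controls, endothelial markers (2 of 6 tested) to 4.06 to 4.84 RPKM in mutants, against 2.57 to 4.84 RPKM in controls, and erythroid markers (4 of 6 tested) to 8.36 to 12.7 RPKM in mutants, against 6.92 to 13.3 RPKM in controls, with 0 called in these 4 lists. No marker of the lists found in the table was at 0 in every library.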

How the data were processed

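The authors deposited 1 table of RPKM values per Entrez Gene entry for the 6 libraries; the labels' protocols give total RNA, Ovation amplification and paired reads of 100 bases on 2 lanes, and the submitters' processing notes name FastQC, limma and mm10. How reads were counted, and with which strand setting, is not given in the sources used here. Symbols were matched for 25275 of 27179 entries through RefSeq. The 13463 genes averaging 0.5 RPKM or more were fitted on log2(RPKM + 0.5) with limma 3.58.1 in R 4.3.3, variance trend on, genotype as the term, two-sided, with Benjamini-Hochberg adjustment over all tested genes and a threshold of 0.05. Depth came from the RPKM steps: 13462 tested entries gave whole reads within 0.1 of a read (a read may be a pair), so 1 read on 1 kb was 0.0277 to 0.0362 RPKM. These steps, seed searches and annotation came from scripts in Python 3.11.15 with RefSeq GRCm38.p6 and GENCODE transcripts of the same build; the fit was tested on simulated data. The 10 genes and all lists were chosen with earlier results of these data known. By rule, the text names the 10 genes and every called gene of the pathway lists. In lists with fewer than 2 called, it names the 2 of lowest p. The rule also covers Mir17hg, Six2, Cited1, Xist and, among the genes compared, the 3 most correlated with each called member. Cited1 was not called (limma adjusted p = 0.235). Outside that rule it names microRNA precursors, genes overlapping members and the tested genes beyond the locus. Sulf2 and Nrp1 were also outside it and were named after their values were seen. Each library is a separate pool of embryos.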

Additional observations from a re-analysis of the deposited data

How the results depend on the processing

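The call of Gpc5 was the only one among the 10 genes, and the count fell to 0 without the filter on low values, without the variance trend and with limma array weights (whose fit stopped short of convergence); leaving out 1 library gave 0 to 1 calls, the 1 without control 2 being Sdc2. The count of called genes in the whole table (422) was 143 without the filter, 689 with voom on whole reads and 148 to 1083 with 1 library left out, the extremes being without mutant 2 and without control 3. Pathway calls (4) numbered 2 without the filter, 8 with voom, among them Cask, Sulf2 and Col18a1, and 2 to 5 with 1 library left out. With 8mers alone 2 of the 10 genes held a seed match instead of 4 (14.3% of tested genes), and with any 6mer 6 did (68.4%). Signs turned for Gpc2, to 0.01 with median-of-ratios scaling, 0.01 with quantile normalization, 0.03 without mitochondrial ribosomal RNA and -0.22 to 0.18 with 1 library left out; for Gpc3, to 0.07, 0.18 and 0.09 in the same order and -0.11 to 0.09; and for Gpc6, at -0.02 to 0.12 with 1 library left out. The other 7 of the 10 genes kept their sign in every setting run. Sdc1 and Chpf2 were not tested with the filter at 1 RPKM. Causes were not tested. The labels give both genotypes replicates 1 to 3, but same-numbered libraries deviated together with correlations of 0.05, 0.16 and 0.15, so the numbers were not taken as pairs, although each library correlated best with its own number; with the replicate block 393 genes were called, Gpc5 stayed called (adjusted p = 0.0372) and Hpse did not (0.0625). Depth limits Sdc1 most, at 62 to 158 reads per library.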
